A study of Mus musculus with 4 samples.

Results

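The genes described here steer thymocytes through the thymus and out of it. They are 8 genes fixed by name: the chemokine receptor genes Ccr9, Ccr7, Ccr4, Ccr8 and Cxcr4, the sphingosine 1-phosphate receptor gene S1pr1, the transcription factor gene Klf2 and the semaphorin receptor gene Plxnd1. All 8 were found among the 22730 gene symbols of the expression tables, and their symbols carried 646 of the 1921627 listed exon-exon junctions. RNA came from total thymocytes of mice labelled wild type (2 mice) or hnRNP L KO (2 mice), 1 library per mouse. Hnrnpl encodes hnRNP L, an RNA-binding protein that acts in the splicing of pre-mRNA. The labels give both genotypes 1 mixed genetic background, made up of CD45.1, C57BL/6, LckCre transgenic and, a fluorescent reporter line, Gt(ROSA)26Sortm4(ACTB-tdTomato,-EGFP)Luo. LckCre drives Cre recombinase from the Lck promoter, which is active in developing T cells. The sources used here do not give which mice carried Cre, the deleted part of Hnrnpl or the age of the mice.

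Developing T cells enter the thymus, rearrange their T cell receptor genes in the cortex, move to the medulla after positive selection and leave as mature cells. Chemokine receptors and S1pr1 signal through G proteins of the Gi class and read the ligands that each region makes. Cxcr4 and Ccr9 act on immature cells, Ccr7 and Ccr4 draw selected cells into the medulla, and S1pr1, which is switched on by Klf2, lets mature cells follow sphingosine 1-phosphate into the blood. Plexin D1, the product of Plxnd1, binds semaphorin 3E and is known to shape the response of thymocytes to the Ccr9 ligand Ccl25.

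Gene reads per library ranged from 27548708 to 51544714, of 69061265 to 122619310 mapped reads, and junction reads from 3302915 to 6146421. Hnrnpl itself had 854 and 813 CPM in wild-type mice against 467 and 208 in KO mice. CPM are read counts scaled to library size and given here after TMM scaling, which sets the libraries to a common scale. Relative to the wild-type mean, 56.0% was left in KO replicate 1 and 25.001% in KO replicate 2. The KO mice also differed in sex: KO replicate 1 had 222 reads of Xist and 4116 of the Y-linked gene Ddx3y, against 57852 to 87390 and 1 to 17 in the other libraries. The 8 genes lie on chromosomes 1, 3, 6, 8, 9 and 11. Small RNA genes took 8.23% of the gene reads in wild-type replicate 1 and 1.13 to 2.14% in the others. Rag1, the leading double-positive thymocyte marker, was present at 5529 to 7811 CPM in every library.

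The promoters below are those of the 4 genes whose KO libraries both lay under both wild types (values follow), a pattern that 21.4% of all tested genes had. They were taken from the RefSeq table of build GRCm38.p6, while the expression files use mm9. The table held 6 of the 8 genes, without Ccr7 and S1pr1. Each run covers 250 bases before the start and 50 after it, 5′ to 3′ on the gene's strand. Capitals mark matches on either strand to any of 5 motifs: CAGNTG, bound by E proteins, CACCC of the KLF family, TGTGGT of RUNX factors, TGTTTAC of FOXO factors, and the GC box GGGCGG.
Ccr9 (chr9:123766961-123767260, plus strand): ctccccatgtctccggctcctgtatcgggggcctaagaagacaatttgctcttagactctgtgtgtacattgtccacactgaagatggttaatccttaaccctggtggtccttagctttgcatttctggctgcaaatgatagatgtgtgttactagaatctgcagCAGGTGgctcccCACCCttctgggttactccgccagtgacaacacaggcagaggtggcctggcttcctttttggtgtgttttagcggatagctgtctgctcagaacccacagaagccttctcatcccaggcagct
Cxcr4 (chr1:128592250-128592549, minus strand): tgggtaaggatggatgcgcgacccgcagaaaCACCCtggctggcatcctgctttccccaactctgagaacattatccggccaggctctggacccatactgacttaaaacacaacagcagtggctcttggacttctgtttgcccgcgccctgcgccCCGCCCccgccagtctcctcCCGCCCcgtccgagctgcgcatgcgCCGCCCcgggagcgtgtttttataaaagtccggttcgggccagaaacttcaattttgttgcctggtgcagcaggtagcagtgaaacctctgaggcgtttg
Ccr8 (chr9:120091883-120092182, plus strand): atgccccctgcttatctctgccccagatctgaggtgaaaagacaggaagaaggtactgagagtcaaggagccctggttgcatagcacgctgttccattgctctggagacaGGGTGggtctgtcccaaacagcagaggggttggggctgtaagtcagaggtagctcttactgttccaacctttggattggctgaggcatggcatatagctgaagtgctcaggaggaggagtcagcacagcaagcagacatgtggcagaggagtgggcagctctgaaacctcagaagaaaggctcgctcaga
Plxnd1 (chr6:115994956-115995255, minus strand): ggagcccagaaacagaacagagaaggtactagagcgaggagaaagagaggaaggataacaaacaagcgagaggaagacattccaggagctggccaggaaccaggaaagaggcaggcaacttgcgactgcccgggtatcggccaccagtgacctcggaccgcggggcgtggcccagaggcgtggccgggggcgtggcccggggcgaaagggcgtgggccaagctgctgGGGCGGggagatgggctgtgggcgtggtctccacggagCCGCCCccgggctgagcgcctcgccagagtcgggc
The Ccr9 window held an E protein motif, CAGGTG, starting 85 bases before the start and a KLF motif 73 bases before it. Ccr8 held a KLF motif 140 bases upstream. Cxcr4 held 1 KLF motif and 3 GC boxes. Plxnd1 held 2 GC boxes and none of the other motifs. No RUNX or FOXO motif lay in any of these 4 windows. The windows of Ccr4 and Klf2, not printed, had none either. Ccr4 held 1 E protein and 1 KLF motif, and Klf2 held 1 KLF motif and 2 GC boxes. These matches therefore do not set the 4 genes apart. Among all 32851 promoters of the same length, 51.4% held the E protein motif, 57.5% the KLF motif, 16.8% the RUNX motif, 3.65% the FOXO motif and 35.7% the GC box, so a match is common for all but the FOXO motif. GC content was 51.3% for Ccr9, 54.0% for Ccr8, 59.3% for Cxcr4 and 67.0% for Plxnd1, against a median of 52.7% over all promoters.

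The first question is how strongly each gene was expressed in thymocytes. Levels between genes are compared here by the authors' RPKM, which divides reads by transcript length and by mapped reads. Ccr9 and Cxcr4 stood far above the rest. Ccr9 had 174 and 185 RPKM in the wild types and Cxcr4 had 160 and 167, levels above those of at least 99.37% of all gene symbols in each of these 2 libraries. Plxnd1 followed with 29.3 and 34.6 and Ccr7 with 27.5 and 25.1. S1pr1 (10.2 and 12.6) and Ccr4 (11.3 and 8.58) overlapped in the wild types, so their order is not resolved. Ccr8 had 3.63 and 3.803 and Klf2 2.19 and 2.18. None of the other neighbouring pairs in this order overlapped between the 2 wild types.

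In KO replicate 1 the first 6 places were held by the same genes, with 143 RPKM for Ccr9, 133 for Cxcr4, 29.1 for Plxnd1, 28.1 for Ccr7, 12.2 for S1pr1 and 9.996 for Ccr4, ahead of Klf2 (2.58) and Ccr8 (2.52). KO replicate 2 differed at the top, where Cxcr4 with 112 RPKM stood above Ccr9 with 81.1. The others there were Plxnd1 at 17.3, Ccr7 at 14.6, Ccr4 at 6.94, S1pr1 at 5.91, Ccr8 at 2.10 and Klf2 at 1.86. Every one of the 8 genes had its lowest RPKM of the 4 libraries in KO replicate 2.

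**Figure D1:**
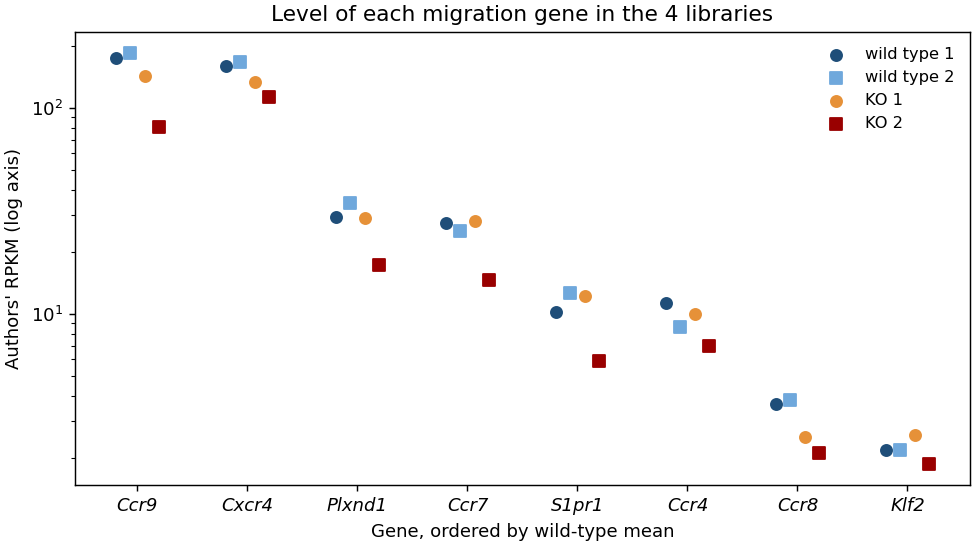
Level of each gene as the authors' RPKM (log axis) in the 4 libraries, 1 point per mouse, with genes ordered by their wild-type mean. The points of KO replicate 2 are the lowest of each gene, from 112 RPKM for Cxcr4 to 1.86 for Klf2.

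KO was then set against wild type to ask which of these genes changed when hnRNP L was reduced. No gene of the 8 passed the edgeR test over 13733 genes (0 at an adjusted p under 0.05), where the test called 1 gene in all, or 0.00728%. The targeted gene Hnrnpl did not pass either (log2 fold change -1.30, SE 0.42, edgeR adjusted p = 0.486). A gene that did not pass is therefore not shown to be unchanged. DESeq2, which called 108 genes in all, and limma-voom, which called 0, also called 0 of the 8. An unadjusted p under 0.05 was reached by 3 of the 8 in edgeR, all on the lower side, against 3.61% of all tested genes on that side, by 4 in DESeq2 (1331 of all tested genes in either direction) and by 3 in limma-voom (1296 of all). The fold change was negative for 7 of the 8 genes, with a median log2 fold change of -0.38, against 48.9% negative and a median of 0.01 over all tested genes. Both KO libraries lay below both wild types for 4 of the 8 genes, Ccr9, Cxcr4, Ccr8 and Plxnd1, and for 21.4% of all tested genes. The 8 genes were named with earlier results of these data known, so these counts describe them and test nothing.

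Among the receptors of immature cells, Ccr9 was lower in both KO libraries and most so in KO replicate 2. Ccr9 (mm9 chromosome 9, 123676329 to 123692575) had 1955 and 1951 CPM in wild-type mice (mean 1953 ± 2.83 SD, n = 2) and 1568 and 868 CPM in KO mice (mean 1218 ± 495 SD, n = 2). The wild types were nearly equal, while the KOs stood at 80.3% and 44.4% of the wild-type mean, so that the KO mice were further from each other than KO replicate 1 was from the wild types. The log2 fold change was -0.68 (SE 0.27) and did not pass (edgeR adjusted p = 0.486).

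Cxcr4, the receptor for Cxcl12 of the thymic stroma, gave a narrower picture. It (mm9 chromosome 1, 130484776 to 130488876) had 742 and 730 CPM in wild-type mice (mean 736 ± 8.58 SD, n = 2) against 602 and 496 in KO mice (mean 549 ± 74.8 SD, n = 2). Both KO libraries lay below the wild types, at 81.9% and 67.5% of their mean. The log2 fold change was -0.42 (SE 0.15, edgeR adjusted p = 0.475).

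Plxnd1 was close to the wild types in KO replicate 1 and low in KO replicate 2. It (mm9 chromosome 6, 115904829 to 115945023) had 519 and 574 CPM in wild-type mice (mean 546 ± 38.8 SD, n = 2) against 503 and 291 in KO mice (mean 397 ± 150 SD, n = 2). KO replicate 1 lay just under wild-type replicate 1, so the separation of the groups there was smaller than the gap between the wild types. The log2 fold change was -0.46 (SE 0.25, edgeR adjusted p = 0.557).

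Of the receptors of selected cells, Ccr7 and Ccr4 overlapped between the groups and Ccr8 did not. Ccr7, which binds Ccl19 and Ccl21 (mm9 chromosome 11, 99005513 to 99016391), had 139 and 119 CPM in wild-type mice (mean 129 ± 14.3 SD, n = 2) against 139 and 70.5 in KO mice (mean 105 ± 48.4 SD, n = 2). KO replicate 1 matched the higher wild type, and only KO replicate 2 was low, at 54.6% of the wild-type mean. Its log2 fold change was -0.30 (SE 0.36, edgeR adjusted p = 0.773).

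Ccr4, the receptor for Ccl17 and Ccl22 (mm9 chromosome 9, 114399434 to 114405662), had 80.6 and 57.5 CPM in wild-type mice (mean 69.0 ± 16.3 SD, n = 2) against 69.7 and 47.2 in KO mice (mean 58.4 ± 15.9 SD, n = 2). Its wild types were the furthest apart of the 8 genes relative to their mean, and KO replicate 1 fell between them. The log2 fold change of -0.24 (SE 0.24) lay within that spread (edgeR adjusted p = 0.726).

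Ccr8, which binds Ccl1 and in mice Ccl8, was sparse, with 183 to 539 reads per library. It (mm9 chromosome 9, 120001251 to 120004024) had 10.8 and 10.6 CPM in wild-type mice (mean 10.7 ± 0.139 SD, n = 2) against 7.28 and 5.91 in KO mice (mean 6.59 ± 0.967 SD, n = 2). Both KO libraries were below the wild types, at 68.3% and 55.4% of their mean. The log2 fold change was -0.69 (SE 0.19, edgeR adjusted p = 0.414), close to that of Ccr9. Its single known junction, counted separately, was too sparse to resolve that difference: 16 and 19 junction reads in wild-type mice against 10 and 11 in KO mice came to 3.45, 3.19, 3.07 and 3.09 junction CPM, with both KO libraries below both wild types by a small margin (log2 fold change -0.10, SE 0.55).

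The egress genes S1pr1 and Klf2 overlapped between the groups. S1pr1 (mm9 chromosome 3, 115413351 to 115417973) had 79.5 and 91.5 CPM in wild-type mice (mean 85.5 ± 8.47 SD, n = 2) against 92.4 and 43.6 in KO mice (mean 68.0 ± 34.5 SD, n = 2). KO replicate 1 had the highest level of the 4 libraries and KO replicate 2 the lowest, 47.2% of KO replicate 1. The log2 fold change was -0.33 (SE 0.43, edgeR adjusted p = 0.796).

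Klf2, upstream of S1pr1 in mature thymocytes, was the least expressed of the 8 genes in the wild types and the only one with no negative fold change. It (mm9 chromosome 8, 74842961 to 74845553) had 10.2 and 9.53 CPM in wild-type mice (mean 9.86 ± 0.474 SD, n = 2) against 11.7 and 8.24 in KO mice (mean 9.97 ± 2.45 SD, n = 2), from 255 to 486 reads. The KO libraries lay on either side of the wild types. Its log2 fold change was 0.01 (SE 0.21, edgeR adjusted p = 0.984) and turned to -0.01 with limma-voom and to -0.27 without KO replicate 1, while its few junction reads gave 1.12.

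The gap between the 2 KO mice was common to all 8 genes. KO replicate 2 had the lower level of each, from 47.2% (S1pr1) to 82.4% (Cxcr4) of that in KO replicate 1. Over all tested genes, 50.9% were lower in KO replicate 2. Relative to the wild-type mean the 8 genes had a median log2 ratio of -0.05 in KO replicate 1, where 4 of 8 were below it, and -0.86 in KO replicate 2, where 8 of 8 were. Of all tested genes, 48.8% were below the wild-type mean in KO replicate 2. With KO replicate 1 left out, edgeR called 4 of the 8, Ccr9 (log2 fold change -1.18, adjusted p = 0.0139), S1pr1 (-0.98, 0.0195), Plxnd1 (-0.92, 0.0219) and Ccr7 (-0.88, 0.0289), and 427 of 14440 tested genes, or 2.96%. That fit sets 1 mouse against 2 and assumes that it varies as the wild types do. With KO replicate 2 left out it called 0 of the 8, and Ccr7 (0.11), S1pr1 (0.11) and Ccr4 (0.01) had positive fold changes, while Ccr9 was at -0.32 and Plxnd1 at -0.12. The sex and the residual Hnrnpl of the KO mice differ together, and their parts in this gap cannot be told apart.

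**Figure D2:**
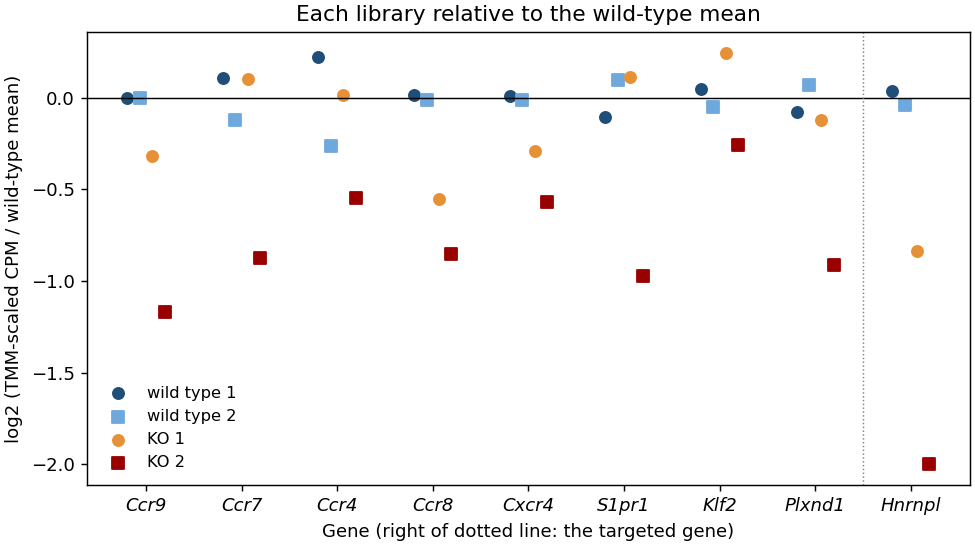
TMM-scaled CPM of each library over the wild-type mean (log2) for the 8 genes and, right of the dotted line, the targeted gene Hnrnpl, 1 point per mouse. KO replicate 2 is the lowest point of each of the 8 genes, from -0.26 for Klf2 to -1.17 for Ccr9, while KO replicate 1 lies between -0.55 and 0.25 for the 8 genes.

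Some, but not all, lists of markers of thymocyte stages and of other cells also differed between the KO mice. In bulk RNA, fewer cells of a type and less RNA per cell cannot be told apart. Over all tested genes, 48.8% were below the wild-type mean in KO replicate 2. The mature single-positive markers other than these genes were below it there for 9 of 9 (4 of them are also in the list around Klf2, and Il7r also in the double-negative list). Their summed level was 1421 and 1372 CPM in wild-type mice against 1384 and 904 in KO mice. Gimap6, the highest of them, had 417, 363, 405 and 238 CPM in wild-type replicates 1 and 2 and KO replicates 1 and 2. The double-positive markers summed to 17030 and 16570 CPM in wild-type mice against 17440 and 13440 in KO mice, with 8 of 10 below the wild-type mean in KO replicate 2. The double-negative markers were highest in KO replicate 2, at 668 and 885 against 671 and 1067, led by Notch1 with 296, 413, 325 and 554, but 4 of the 10 were below the wild-type mean there. Thymic epithelial markers summed to 160 and 149 in the wild types and to 143 and 267 in the KOs, with 12 of 12 above the wild-type mean in KO replicate 2. Their part in the levels of the 8 genes was not tested.

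Other lineages were small. Erythroid markers summed to 147 and 129 CPM in wild-type mice against 461 and 94.1 in KO mice, led by Hbb-b2, and were thus high in KO replicate 1. B cell markers, led by Cd79b, summed to 41.4 to 50.1 CPM, myeloid and dendritic markers, led by Lyz2, to 227 to 246, mesenchymal and endothelial markers, led by Pecam1, to 214 to 249.1, and gamma-delta and innate-like markers, led by Sox13, to 42.2 to 51.4. Pecam1 alone had 171 to 189 CPM and so made up most of the mesenchymal and endothelial sum. The sum did not follow its course, since Pecam1 was highest in KO replicate 1 and the sum in KO replicate 2. Of the 11 tested genes of that list, 9 were below the wild-type mean in KO replicate 1. In KO replicate 2 only 1 was, against 48.8% of all tested genes. The median log2 ratios to the wild-type mean were -0.42 and 0.63. The regulatory and agonist-selected markers, led by Ikzf2, summed to 743 and 761 in wild-type mice against 771 and 852 in KO mice. Still, 6 of the 10 were below the wild-type mean in KO replicate 2, and Il2ra is also in the double-negative list. Of the 6 tested gamma-delta and innate-like markers, 4 were below the wild-type mean in KO replicate 2, while Sox13 was highest there. No matched marker of these lists had 0 reads in any library, and none passed the edgeR test.

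The ligands of these receptors come largely from stroma and dendritic cells. Of 12 ligand genes listed, 8 were matched. Ccl19, Ccl21a, Ccl21b and Ccl21c matched no gene symbol, so no ligand of Ccr7 is covered. Of the 8 matched ligand genes, 6 could be tested, 0 passed the edgeR test, 3 had a positive and 3 a negative fold change, and 1 had an unadjusted p under 0.05. Sema4a, a semaphorin that can bind plexin D1, had that p, with 22.4 and 22.0 CPM in wild-type mice against 36.4 and 33.6 in KO mice (log2 fold change 0.66, SE 0.13, adjusted p = 0.364). Both KO libraries were above both wild types, a pattern that 3195 of the 13733 tested genes had. Ccl25, the Ccr9 ligand made by thymic epithelium, had 23.5 and 18.4 CPM against 14.7 and 45.1, and Cxcl12 had 11.7 and 7.76 against 7.53 and 17.6. Both were highest in KO replicate 2, where Ccr9 and Cxcr4 were lowest. Epithelial markers and most mesenchymal and endothelial markers were above the wild-type mean there. The Ccr4 ligands had 19.3 and 15.8 against 13.8 and 16.0 CPM for Ccl22 and 0.899 and 0.568 against 0.507 and 0.258 for Ccl17. Sema3e had 3 to 12 reads per library and was not tested, and Ccl1 had 0 reads in all 4 libraries, which allows up to 3 reads in each.

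Further chemokine receptors were far less abundant than Ccr9 or Cxcr4. The other homing receptors summed to 36.8 to 53.4 CPM, led by Ccr2 at 9.63 to 12.2. Of the 12 tested, 0 passed, with 6 negative and 6 positive and a median log2 fold change of 0.01. For 11 of the 12 KO replicate 2 was the lower of the KO mice, with median log2 ratios to the wild-type mean of 0.18 in KO replicate 1 and -0.30 in KO replicate 2. Ccr10 had 1.10 and 1.12 CPM in wild-type mice against 0.579 and 0.420 in KO mice (log2 fold change -1.15, SE 0.42). Cx3cr1 (0.71, SE 0.31) and Ccr3 (0.63, SE 0.39), which monocytes and granulocytes also carry, had positive fold changes. Of the atypical receptors, which bind chemokines without signalling through G proteins, 3 were tested, 0 passed and none exceeded 1.10 CPM (Cxcr7 1.06, SE 0.60, Ccrl1 0.51, SE 0.63, and Ccrl2 0.14, SE 0.41 on the log2 scale).

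Around S1pr1, 11 genes that make, carry, break down or sense sphingosine 1-phosphate were tested, 0 passed, and 7 were negative, with a median of -0.02. S1pr4, another receptor of lymphocytes, had both KO libraries below both wild types, with 54.1 and 51.6 CPM in wild-type mice against 51.0 and 29.9 in KO mice (log2 fold change -0.39, SE 0.25). KO replicate 1 lay under wild-type replicate 2 by less than the gap between the wild types. Of all tested genes, 21.4% had both KO libraries below both wild types. The lowest p belonged to Ppap2a, a lipid phosphatase (-1.06, SE 0.46, at 0.388 to 1.25 CPM), and Spns2, a transporter of the lipid, had -0.45 (SE 0.32). Ppap2b, a phosphatase like Ppap2a, had 0.34 (SE 0.37). Sgpl1, the lyase that keeps the lipid low within tissue and named after its values were seen, had 104 and 90.9 CPM in wild-type mice against 97.2 and 96.3 in KO mice.

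The genes around Klf2 were split. Of 14 tested, 0 passed, 8 were positive and 6 negative, with a median of 0.05, and for 12 of the 14 KO replicate 2 had the lower level of the KO mice. Foxp1, a factor of T cell quiescence, had 154 and 190 CPM in wild-type mice against 213 and 204 in KO mice (log2 fold change 0.28, SE 0.14). Klf3 had 0.22 (SE 0.17) and Mef2d 0.23 (SE 0.19). Cd69, which holds S1pr1 inside the cell and so delays egress, had 75.5 and 67.7 CPM in wild-type mice against 69.6 and 35.9 in KO mice (-0.44, SE 0.36), so it was low in the library in which S1pr1 was low.

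Plexins, neuropilins and semaphorins other than those already named gave 23 tested genes, of which 0 passed, 12 were positive and 11 negative, with a median of 0.03. KO replicate 2 had the lower level of the KO mice for only 6 of the 23, where Plxnd1 stood at 57.7%. Sema4d, a semaphorin of lymphocytes, had 206 and 282 CPM in wild-type mice against 324 and 293 in KO mice (log2 fold change 0.34, SE 0.17). Farp2, an exchange factor bound by plexins, had 0.88 (SE 0.33), Rnd1, a small GTPase that binds them, 0.94 (SE 0.46), and Sema4f -0.68 (SE 0.34), all at under 6 CPM.

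Downstream of the receptors, most genes had a small negative fold change. Of 21 tested genes of Gi signalling and receptor desensitisation, 0 passed, 16 were negative, the median was -0.11, and KO replicate 2 was the lower of the KO mice for 18 of the 21. Rgs10, which shortens Gi signals, had 131 and 125 CPM in wild-type mice against 95.1 and 68.8 in KO mice (log2 fold change -0.64, SE 0.16, adjusted p = 0.414). Adrbk2, a kinase that desensitises receptors, had 0.61 (SE 0.25), Pik3cg, the kinase switched on by Gi subunits, -0.30 (SE 0.13), and Gnb1, a beta subunit, -0.25 (SE 0.14). Of 17 genes of guanine exchange and motility, 0 passed, 14 were negative, and 10 had both KO libraries below both wild types, a pattern that 21.4% of all tested genes had. KO replicate 2 was the lower of the KO mice for 14 of the 17, with median log2 ratios to the wild-type mean of -0.10 in KO replicate 1 and -0.31 in KO replicate 2, the library in which mature and double-positive markers were low, and the part of those cells in this was not tested. The 10 included Dock2, the exchange factor that couples chemokine receptors to Rac (470 and 493 against 437 and 382 CPM, log2 fold change -0.23, SE 0.14), Prkcq (-0.33, SE 0.17), Vav1 (-0.29, SE 0.15) and Rhoh (-0.34, SE 0.18).

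**Figure D3:**
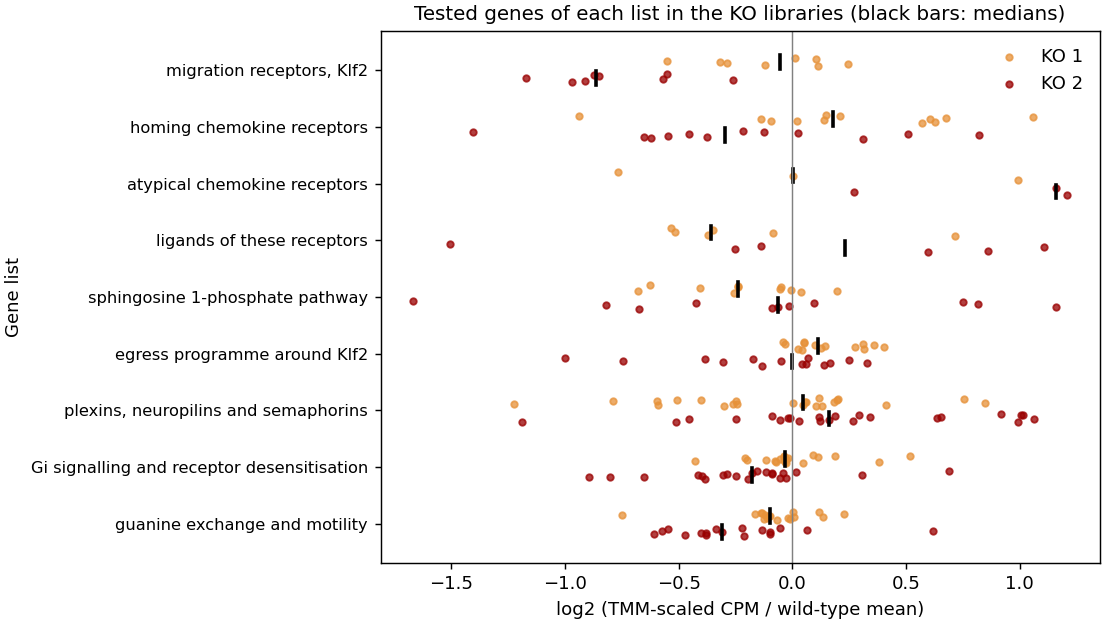
Each tested gene of the 8 migration genes and of 8 pathway lists as log2 of TMM-scaled CPM over the wild-type mean, orange for KO replicate 1 and dark red for KO replicate 2, with black bars at the medians. The migration genes have medians of -0.05 and -0.86, and the plexins, neuropilins and semaphorins 0.05 and 0.16.

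The genes whose profile over the 4 libraries lay nearest to these receptors were of mixed kinds. Likeness was the Euclidean distance between log2 CPM profiles with their means removed, over 4 libraries and 8880 genes of at least 10 CPM. For Ccr9 they were Fmnl2, a formin gene (62.8, 64.5, 50.5 and 29.2 CPM in wild-type replicates 1 and 2 and KO replicates 1 and 2, distance 0.0639), and Arfgap3 (22.7, 22.97, 19.3 and 10.2, distance 0.0691). For Ccr7 they were Tle1 (distance 0.0603) and Otud1 (0.0613), for S1pr1 Spsb1 (0.109), and for Plxnd1 Slc43a2 (0.0898) and Klk8 (0.106). Each distance rests on 4 points.

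Whether hnRNP L altered the splicing of these genes was asked from junction reads. Only Ccr9, Ccr7 and Plxnd1 had at least 2 junctions with 10 or more reads and could be tested, with 41 junctions in all. None of the 41 passed the edgeR test of relative usage and 0 had an unadjusted p under 0.05, while the test called 4 of 95139 junctions over all genes, or 0.0042%, and 2.55% of all junctions had an unadjusted p under 0.05.

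Ccr9 is the one gene of the 8 with 2 annotated splice forms in these tables. Its exon 2 (mm9 chromosome 9, 123681961 to 123682028, 68 nt) is either included or skipped. Its place relative to the start codon was not checked here. The junction of exon 1 with exon 2 had 193 and 237 reads in wild-type mice against 127 and 64 in KO mice. That of exon 2 with exon 3 had 428 and 340 against 279 and 142, and the one that skips exon 2 had 515 and 944 against 334 and 227. With inclusion reads averaged over both flanking junctions and set against inclusion plus skipping, exon 2 was included at 37.6% and 23.4% in wild-type mice (mean 30.5 ± 10.05% SD, n = 2) and at 37.8% and 31.2% in KO mice (mean 34.5 ± 4.66% SD, n = 2). The lowest and nearly the highest inclusion were both in wild types, and the difference of 4.00 points between the group means was well inside the gap of 14.2 points between the wild types. An exact permutation of 2 against 2 mice cannot give a two-sided p below 0.333. The junctions had log2 changes in relative usage of 0.10, 0.28 (the smallest p of this gene) and -0.02 in that order (edgeR adjusted p = 1.00 for each).

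The inclusion junctions did not give the same share. By the upstream one, exon 2 was included at 27.3% (exact 95% interval 24.0 to 30.7%) and 20.1% (17.8 to 22.5%) in the wild types and at 27.5% (23.5 to 31.9%) and 22.0% (17.4 to 27.2%) in the KOs. By the downstream one it was 45.4% (42.2 to 48.6%) and 26.5% (24.1 to 29.0%) against 45.5% (41.5 to 49.6%) and 38.5% (33.5 to 43.7%). By both, replicate 2 of each genotype was below replicate 1, and the wild types differed beyond counting error.

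**Figure D4:**
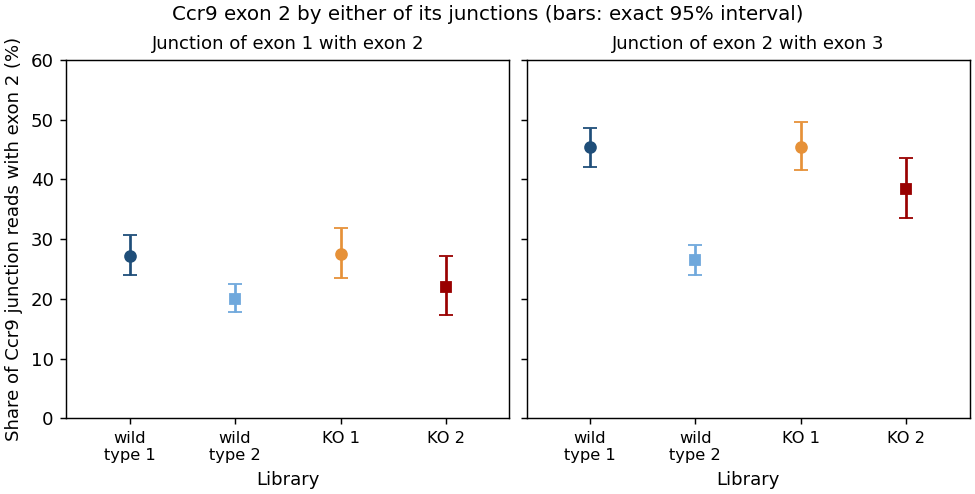
Share of Ccr9 junction reads that include exon 2, set against the reads that skip it, by the junction with exon 1 (left) and with exon 3 (right), 1 point per library with its exact 95% interval. Wild-type replicate 2 is lowest in both panels, at 20.1% and 26.5%.

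Plxnd1 has 36 exons, and its 35 known junctions carried 4565 and 6433 reads in wild-type mice against 3024 and 1974 in KO mice. Both KO shares lay below both wild-type shares at 2 junctions, above them at 7 and overlapped at 26. How many junctions of other genes did so was not counted, so these counts show no change particular to Plxnd1. The wild types themselves differed beyond counting error at several junctions, such as that of exon 6 with exon 7, at 6.29% (exact 95% interval 5.60 to 7.03%) and 9.45% (8.75 to 10.2%), and that of exon 33 with exon 34, at 8.89% (8.08 to 9.76%) and 11.4% (10.6 to 12.2%). The smallest p belonged to the junction of exon 7 with exon 8, with 38 and 35 reads in wild-type mice against 34 and 24 in KO mice (log2 change in usage 0.53, edgeR adjusted p = 1.00). In KO replicate 2 the first junction, across an intron of 12734 nt, stood apart, and it was singled out after its values were seen. It carried 9.003% (exact 95% interval 8.19 to 9.87%) and 7.55% (6.92 to 8.23%) of the gene's known junction reads in the wild types, 9.72% (8.69 to 10.8%) in KO replicate 1 and 4.00% (3.18 to 4.96%) in KO replicate 2. Over all 4 libraries its log2 change in usage was -0.09. It was -0.72 without KO replicate 1 (edgeR unadjusted p = 0.0088, adjusted p = 1.00) and 0.16 without KO replicate 2. The coding bases that this junction joins are shown from GENCODE M21 (GRCm38, chromosome 6, minus strand), the last 30 of exon 1 in lower case and the first 30 of exon 2 in capitals.
Plxnd1 exons 1 and 2: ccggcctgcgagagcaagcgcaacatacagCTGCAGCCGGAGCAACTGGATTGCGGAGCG
Exon lengths in that annotation matched those between the mm9 junctions for all inner exons.

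**Figure D5:**
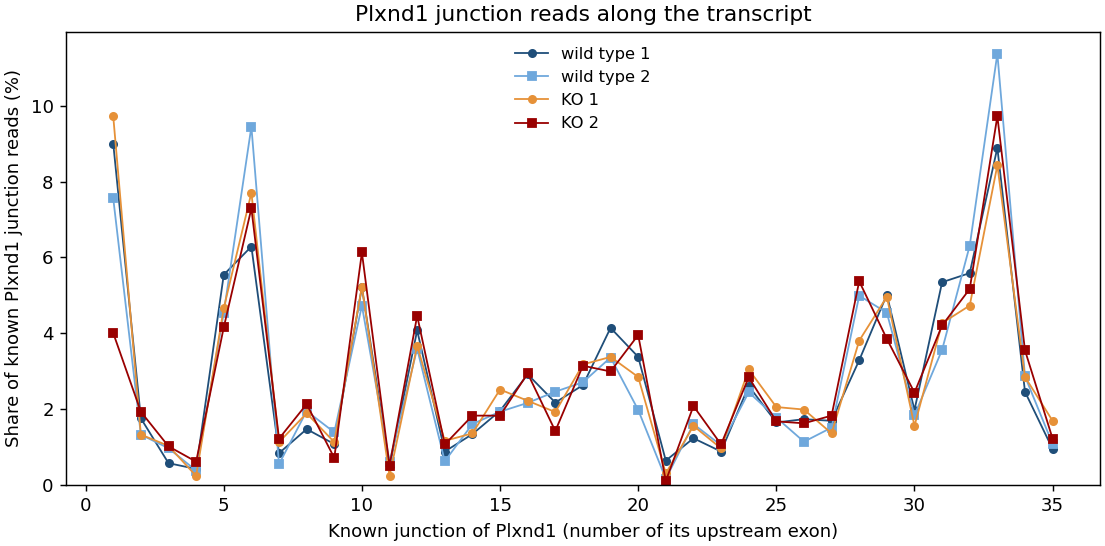
Share of the known Plxnd1 junction reads on each of its 35 junctions, numbered by the upstream exon, 1 line per library. At the first junction KO replicate 2 is at 4.00% and the other libraries at 7.55 to 9.72%, and the wild types differ from each other at some others, such as the junction of exon 6 with exon 7 (6.29% and 9.45%).

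Unannotated skipping was rare in these genes. Plxnd1 had reads on 21 putative junctions, 18 of them with a single read and none with more than 2. In all they had 5 and 8 reads in wild-type mice against 4 and 7 in KO mice, or 0.109% (exact 95% interval 0.0355 to 0.255%), 0.124% (0.0536 to 0.245%), 0.132% (0.0360 to 0.338%) and 0.353% (0.142 to 0.727%) of its junction reads, against 1.15 to 1.18% over all genes. These intervals overlap. Only 1 of the 21, which skips exon 29, had a read in both KO libraries and 0 in the wild types. Ccr7 had 1 such read, in wild-type replicate 2, and Ccr9 had 0 in each library, which allows up to 0.0892 to 0.328% of its junction reads.

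Known junctions give a second count of the same genes, from the spliced reads alone. On that scale Ccr9 had 701 and 564 junction CPM in wild-type mice against 543 and 257 in KO mice (log2 fold change -0.66, SE 0.33), Cxcr4 had 128 and 137 against 94.8 and 73.6 (-0.66, SE 0.18), and Plxnd1 had 985 and 1078 against 928 and 555 (-0.48, SE 0.20). These 3 genes, and Ccr8 by a small margin, had both KO libraries below both wild types on this scale too. These reads come from the same libraries, and the share of all genes with this pattern in junction CPM was not counted. Ccr7 had 24.6 and 12.4 against 14.1 and 7.87 (-0.74, SE 0.37), from 28 to 114 reads, and Ccr4 6.25 and 5.70 against 6.14 and 3.94 (-0.25, SE 0.46). Klf2 had the largest junction fold change, and a positive one, with 1.51 and 1.17 against 2.46 and 3.37 (1.12, SE 0.67), from 7 to 12 reads. S1pr1 had 0, 4, 5 and 2 junction reads and was not tested. None of the 7 tested passed (edgeR adjusted p at least 0.314).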

How the data were processed

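Total thymocyte RNA (2 wild-type mice, 2 with hnRNP L KO) was depleted of ribosomal RNA and sequenced, per the labels' protocols. The authors deposited raw read counts per RefSeq transcript and RPKM values, counting primary alignments down to mapping quality 10, the RPKM scaled by mapped reads, per the file headers. Read counts per exon-exon junction, known or putative, were deposited too. The build is mm9, per the submitters' processing notes, while aligner and strand handling were not given in the sources used here, so reads of Gm17021, which overlaps Ccr9, cannot be told from those of Ccr9.

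The transcript with the most reads stood for each gene (28283 rows, 22730 symbols). Genes were tested across all genes with edgeR 4.0.16 (R 4.3.3, TMM, robust quasi-likelihood, edgeR's filter on low counts, 13733 genes, Benjamini-Hochberg, threshold 0.05), with SE as the log2 fold change over the root of F. Junctions with at least 10 reads were tested for usage with diffSpliceDGE. The gene and junction fits were run on simulated data with 1 spread for all libraries. The planted changes were larger than any given here for the 8 genes. Those runs therefore do not show that changes of the size seen here would be called. Where profiles were compared, 0.5 was added to CPM. Fold changes are KO over wild type. The 8 genes and the lists were chosen with earlier results of these data known. Named were the 8 genes, Hnrnpl, the 4 smallest p of each pathway list, the highest gene of each marker list, the 2 nearest profiles of Ccr9, Ccr7, S1pr1 and Plxnd1, and the junction of smallest p; some genes that this rule names are not reported here. Ligands and genes given beyond that were chosen after their values were seen. Intervals are Clopper-Pearson and cover counting error only, as do limits for 0 (3 reads), and depth was 27548708 to 51544714 gene reads. The labels do not say that replicate numbers pair mice, nor which libraries shared a sequencing slide. Alternatives were DESeq2 1.42.0, limma-voom (limma 3.58.1), other scalings and filters, junction reads, a replicate block, and leaving out each library.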

Additional observations from a re-analysis of the deposited data

How the results depend on the processing

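The count of 1 gene called over all genes varied with the setting: 108 with DESeq2, 0 with limma-voom (1296 at an unadjusted p under 0.05), 0 with upper-quartile scaling (1442), 62 with no filter on low counts, 3 from known junction reads, 3 without small RNA genes and 4 with scaling by mapped reads, an alternative chosen after seeing the data. With 1 library left out it ran from 2 to 427 (leaving out wild-type replicate 1 gave 2, wild-type replicate 2 gave 43, KO replicate 1 gave 427 and KO replicate 2 gave 13). Of the 8 migration genes 0 were called in each of these fits, except 4 without KO replicate 1, so that leaving out a library gave 0 to 4. With the replicate number as a block (replicate block), 121 genes and 0 of the 8 were called, and Ccr9 had -0.74 (edgeR adjusted p = 0.213). Deviations from the group means of same-numbered libraries correlated at 0.389 across 8880 genes, which are not independent. Of 95 alternative fold changes of the 8 genes, 83 kept direction and side of the threshold, 4 passed (all without KO replicate 1) and 8 changed sign. Klf2 turned to -0.011 with limma-voom, -0.0052 with the replicate block, -0.031 with wild-type replicate 2 left out and -0.27 with KO replicate 1 left out. Ccr4 turned to 0.027 with wild-type replicate 1 left out and to 0.014 with KO replicate 2 left out, where Ccr7 was 0.11 and S1pr1 0.11. With 1 library left out, Ccr7 ranged from -0.88 to 0.11, Ccr4 from -0.55 to 0.027, S1pr1 from -0.98 to 0.11 and Klf2 from -0.27 to 0.25. Over the alternatives that kept all libraries Ccr9 ranged from -0.74 to -0.64, Cxcr4 from -0.66 to -0.37, Plxnd1 from -0.51 to -0.42, Ccr8 from -0.70 to -0.10, Ccr7 from -0.74 to -0.26 and Klf2 from -0.011 to 1.12, with -0.10 and 1.12 from junction reads. With 1 library left out, Ccr9 ranged from -1.18 to -0.32, Plxnd1 from -0.92 to -0.12, Cxcr4 from -0.57 to -0.29 and Ccr8 from -0.86 to -0.55. The 4 junctions called over all genes became 2 with known junctions only, 10 with the replicate block and 3 to 12 with 1 library left out, and 0 of the 41 junctions of Ccr9, Ccr7 and Plxnd1 were called in any of these. The cause of these changes was not tested. S1pr1, with 11 junction reads, gave no value from known junction reads. With 2 mice a group, and no statement on how they were bred, p-values set the group difference against the spread between these mice only. That spread was estimated in part across genes.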

Other observations

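Spliced reads were unevenly distributed over these genes relative to their transcript reads. Plxnd1, with 35 introns, had 218 to 226 known junction reads per 1000 transcript reads, nearly the same in each library. Klf2 had 17.6 and 14.4 in wild-type mice against 24.8 and 47.1 in KO mice, from 7, 7, 8 and 12 junction reads, so that its 2 KO libraries were the higher ones at a depth where single reads matter. Ccr8 also had the higher ratios in the KOs, at 49.8 and 60.1 against 38.2 and 35.3 in the wild types, from 10 to 19 junction reads. So did S1pr1, from only 0 and 4 junction reads in wild-type mice against 5 and 2 in KO mice. Cxcr4 had the lower ratios in the KOs, at 18.6 and 17.0 against 20.5 and 22.0, and so, by a small margin, did Plxnd1. Ccr9, Ccr7 and Ccr4 overlapped between the groups. The share of all genes whose ratios separate in this way was not counted, so these ratios show no change particular to these genes. Most of the Klf2 reads were on its second intron (mm9 chromosome 8, 74844141 to 74844643), with 7 and 5 reads in wild-type mice against 8 and 11 in KO mice. For Ccr7 wild-type replicate 1 stood apart, at 21.0 against 12.0 to 12.8 in the others. In Ccr9, reads on the junction of exon 3 with exon 4 exceeded those on the junctions leading into exon 3 by 2.24-fold and 1.43-fold in wild-type mice against 1.68-fold and 1.30-fold in KO mice, and replicate 2 of each genotype was again the lower.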
